A study of Sus scrofa with 8 samples.

Results

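A set of 10 genes that the tumour suppressor p53 is known to switch on was followed in heart muscle of pigs (Sus scrofa) that carry a heterozygous knockout of PKP2 and in wild-type pigs. The 10 genes, CDKN1A, MDM2, GDF15, BAX, BBC3, SESN1, SESN2, CCNG1, TP53INP1 and PHLDA3, were taken by symbol from a table of 30550 genes, and each symbol matched 1 row. Total RNA came from right ventricular tissue, with 4 libraries of the heterozygous knockout, here PKP2_het, and 4 of wild-type pigs, here WT. PKP2 encodes plakophilin 2, a component of the desmosomes that hold heart muscle cells together, and the animals are presented as a model of arrhythmogenic cardiomyopathy. The labels give no strain, age, sex, treatment or founder line for either group. No label ties a library to an animal of its own, so the tests measure the spread between libraries, which may in part be technical.

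The p53 protein is kept low by MDM2, a ubiquitin ligase that is itself a p53 target, and it accumulates when DNA is damaged or other stresses act on the cell. It then raises genes that stop the cell cycle, genes that open the mitochondrial route to apoptosis, and genes that adjust growth and metabolism. In the adult heart most muscle cells no longer divide, and some of these genes, CDKN1A and GDF15 among them, can also be raised by stress signals that do not pass through p53.

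Levels are given as FPKM, fragments scaled by gene length and by library. The libraries held between 23637697 and 31313628 fragments assigned to genes. PKP2 itself was at 24.6 to 45.9 FPKM in PKP2_het and at 52.9 to 72.8 FPKM in WT, in the direction that the labels state. PKP2_het replicate 3 stood apart: mitochondrially encoded genes took 52.1% of its fragments, against 21.1% to 37.6% in the other libraries, and it lay at 47.8 on the first principal component, against -16.5 to 3.74 in the others. Results are therefore given with and without that library for the members it moved most and for some of the lists. The label names cardiomyocytes, and the 6 cardiac muscle markers summed to 14594 to 21655 FPKM in PKP2_het and 15364 to 17130 FPKM in WT, but markers of endothelial cells, fibroblasts and smooth muscle were present in every library. In such bulk tissue, fewer cells of a type and less RNA per cell cannot be told apart.

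CDKN1A and PHLDA3 were the members whose levels were higher in every PKP2_het library than in any WT library, at 2.54 and 1.54 times the WT mean. The other 8 members overlapped between the groups. A filter asked for 1 FPKM or more in 4 or more libraries, which 8 of the 10 members passed. At a Benjamini-Hochberg adjusted p of 0.05, limma on log2(FPKM + 1) called 0 of these 8, while the unadjusted p was under 0.05 for CDKN1A and PHLDA3. The log2 difference, PKP2_het minus WT, was positive for 6 of the 8, with a median of 0.019, against -0.022 over all tested genes. With voom on the recovered fragments limma also called 0. Across the 10757 genes tested, 1.86% were called in either direction, 1.15% were called higher, and 12.8% had an unadjusted p under 0.05. Groups that did not overlap, with PKP2_het higher, were found for 4.86% of tested genes. The called genes were 124 higher and 76 lower in PKP2_het, and 47 each way when libraries were rescaled to equal sums of FPKM. That scaling moved the median log2 difference of all tested genes from -0.022 to -0.23. With the mitochondrial genome left out of the sums, 98 were called higher and 84 lower, and that median was -0.082. Without PKP2_het replicate 3 the difference was positive for 5 of the 8 tested members, with a median of 0.20 against 0.0067 over all tested genes. In that fit limma called 1 of the 8, CDKN1A, beside 2.92% of all tested genes. An unadjusted p under 0.05 was found for 3 of the 8, beside 16.6% of all tested genes.

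**Figure D1:**
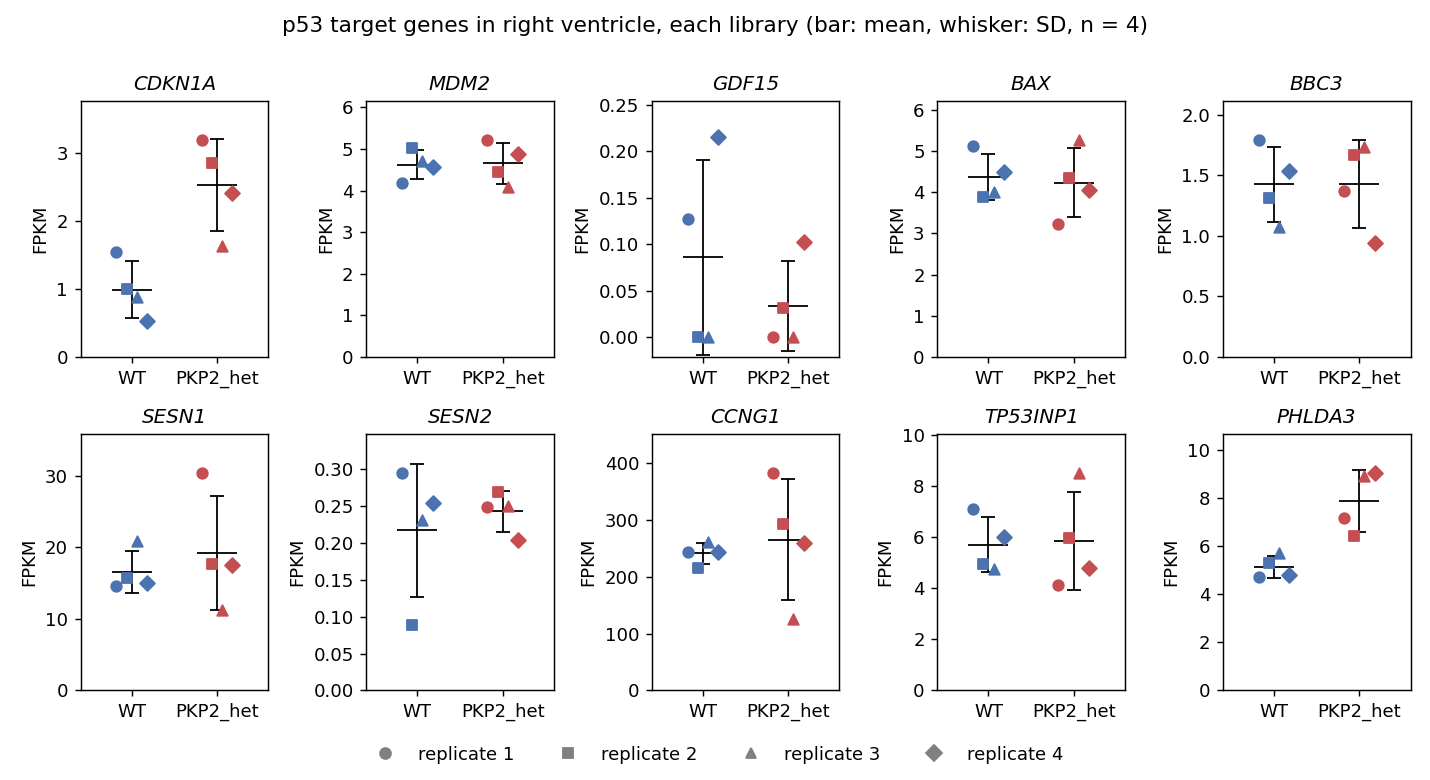
FPKM of the 10 genes in each library, 1 panel per gene with its own axis; points are libraries (symbols give the replicate number), the bar is the mean and the whisker the SD of 4 libraries. In CDKN1A and PHLDA3 all 4 PKP2_het points lie above all 4 WT points, and in the other panels the groups overlap.

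CDKN1A (gene 100152215; chromosome 7, 32354776 to 32363771 of Sscrofa11.1, forward strand) encodes p21, the inhibitor of cyclin-dependent kinases through which p53 holds cells before DNA replication. Its level was 3.19, 2.85, 1.63 and 2.41 FPKM in PKP2_het replicates 1 to 4. In WT replicates 1 to 4 it was 1.55, 0.998, 0.884 and 0.532 FPKM. The groups did not overlap, but the gap was narrow, with the lowest PKP2_het library (replicate 3) just above the highest WT library (replicate 1). These were also the libraries with the highest mitochondrial share of their groups, 52.1% and 37.6%. Whether that share bears on the CDKN1A level was not tested.

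CDKN1A averaged 2.52 ± 0.673 FPKM in PKP2_het against 0.990 ± 0.421 in WT (SD, n = 4). These values rest on 83 to 192 fragments per library in PKP2_het and 34 to 72 in WT. On the log2(FPKM + 1) scale, which understates the change of a gene at this level, the difference was 0.83 with a standard error of 0.18 and a 95% interval of 0.42 to 1.23. The limma adjusted p was 0.0595, short of the threshold, and an exact two-sided permutation test gave p = 0.0286, which with 70 relabellings is the smallest it can give. That permutation test was run on each of the 10 members and its p-values are unadjusted. CDKN1A reached 1 FPKM in 4 PKP2_het libraries and 1 WT library, so it passed the filter on low values through the group where it was high; with no filter its limma adjusted p was 0.124.

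The call for CDKN1A turned on single libraries. Without PKP2_het replicate 3 the log2 difference was 0.96 and the limma adjusted p 0.0195, and without WT replicate 1 it was 0.95 with an adjusted p of 0.0376. Each of the other 6 fits that left out 1 library gave an adjusted p above 0.05, the highest being 0.159 without WT replicate 4. Library quality weights, which give PKP2_het replicate 3 the lowest weight, gave 0.95 and an adjusted p of 0.00294. These 3 fits kept the filter set on all 8 libraries, which CDKN1A passed through PKP2_het, and they were not run without it. PKP2_het replicate 3 and WT replicate 1 were the lowest PKP2_het and the highest WT library for CDKN1A. Leaving either out therefore had to enlarge the difference. With libraries rescaled to equal sums of FPKM, the difference was 0.71 and the adjusted p 0.397. With the mitochondrial genome left out of those sums, the difference was 0.78 and the limma adjusted p 0.0828. The direction was the same in all 18 alternatives that tested the gene. With groups that do not overlap, leaving out 1 library, another pseudocount or weights on libraries cannot reverse it. The size depended on the scale: with a pseudocount of 0.1 the log2 difference was 1.31 (adjusted p = 0.0743), and with voom it was 1.46 (adjusted p = 0.0599). The share of all tested genes called, against which these calls are read, was 6.13% with library quality weights, 2.92% when PKP2_het replicate 3 was left out and 1.29% when WT replicate 1 was.

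**Figure D2:**
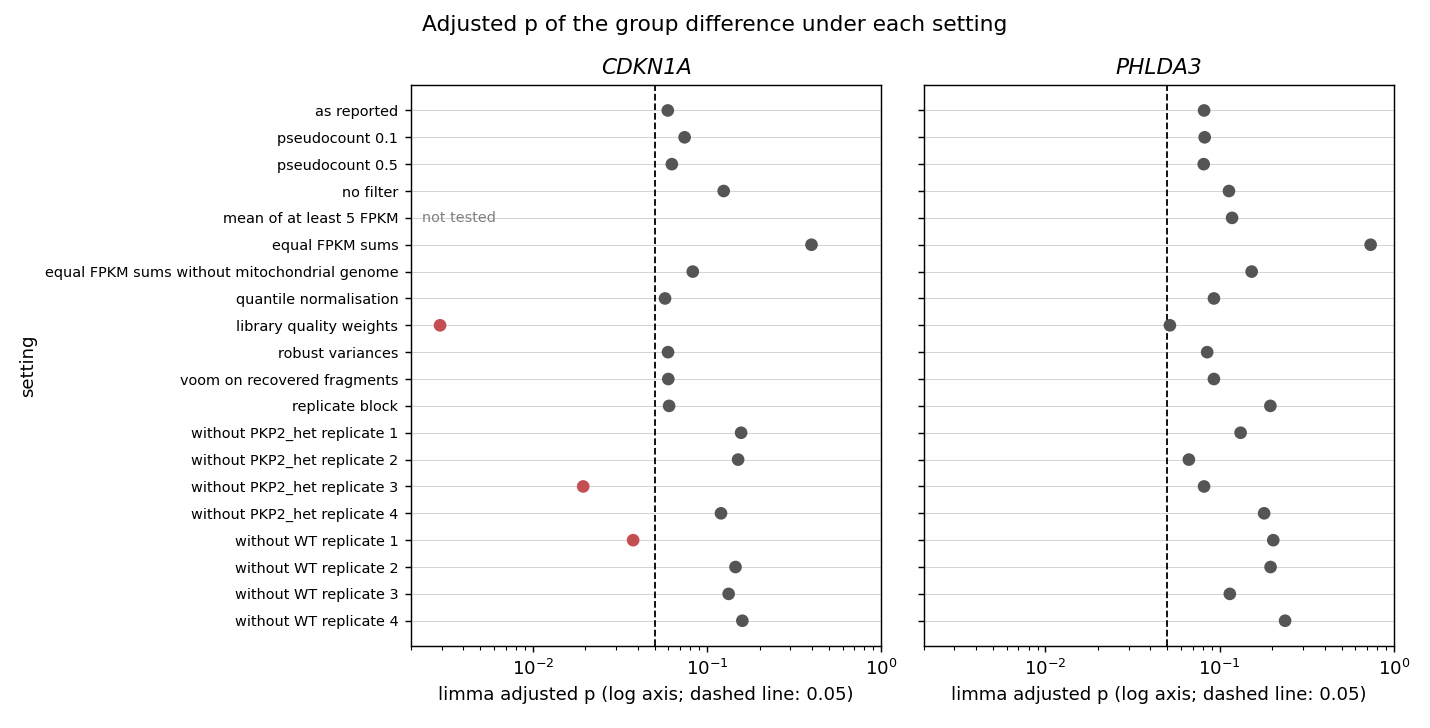
Limma adjusted p for CDKN1A (left) and PHLDA3 (right) under each setting, on a log axis with the threshold of 0.05 dashed; red points lie under it. CDKN1A passes in 3 of 18 alternatives (library quality weights, without PKP2_het replicate 3, without WT replicate 1) and PHLDA3 in 0 of 19; CDKN1A is below a mean of 5 FPKM and was not tested with that filter.

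MDM2 acts on the p53 protein itself, and CCNG1 acts on MDM2. CCNG1 (gene 595110; chromosome 16, 60349255 to 60356737, reverse strand) encodes cyclin G1, a p53 target that works with a phosphatase on MDM2, and was by far the most abundant of the 10. It was at 382, 292, 125 and 259 FPKM in PKP2_het replicates 1 to 4 and at 244, 215, 261 and 243 FPKM in WT. The WT libraries lay close together, whereas PKP2_het held both the highest library (replicate 1) and the lowest (replicate 3). The log2 difference was 0.031 with a 95% interval of -0.63 to 0.69 (limma adjusted p = 0.974). Without PKP2_het replicate 3 it was 0.35 with an interval of 0.016 to 0.69, an unadjusted p of 0.0420 (limma adjusted p = 0.278). In that fit 16.6% of all tested genes had an unadjusted p under 0.05.

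MDM2 (gene 100125959; chromosome 5, 33105717 to 33137602, forward strand), the ligase that marks p53 for degradation, showed the least spread of the tested members. Its PKP2_het values were 5.22, 4.46, 4.09 and 4.87 FPKM, and its WT values 4.19, 5.02, 4.72 and 4.58 FPKM, in replicate order. The 2 groups covered nearly the same range. The log2 difference was 0.0068, with a 95% interval of -0.22 to 0.23. With libraries rescaled to equal sums of FPKM it was -0.21 with a standard error of 0.28, beside a median of -0.23 over all tested genes. MDM2 is on the same chromosome as PKP2, 8287085 bases before its start.

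The apoptosis members did not follow CDKN1A. BAX (gene 396633; chromosome 6, 54222341 to 54228150, forward strand) encodes a protein that permeabilises the mitochondrial outer membrane. It was at 3.23, 4.36, 5.28 and 4.06 FPKM in PKP2_het and at 5.12, 3.89, 4.01 and 4.49 FPKM in WT. PKP2_het again held both extremes, here with replicate 3 highest and replicate 1 lowest. The log2 difference was -0.048 with a 95% interval of -0.35 to 0.26 (limma adjusted p = 0.904). Without PKP2_het replicate 3 it was -0.14 with an interval of -0.40 to 0.12.

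BBC3 (gene 100517403; chromosome 6, 53037103 to 53046902, reverse strand) encodes PUMA, a protein that neutralises the survival members of the BCL2 family. Its level was 1.37, 1.67, 1.73 and 0.937 FPKM in PKP2_het and 1.79, 1.31, 1.07 and 1.53 FPKM in WT, from 56 to 108 fragments per library. The group means were 1.427 ± 0.363 and 1.427 ± 0.309 FPKM (SD, n = 4), and the interval of the log2 difference ran from -0.31 to 0.30. In WT, CDKN1A was below BBC3 in every library, and in PKP2_het it was above BBC3 in replicates 1, 2 and 4 and below it in replicate 3.

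PHLDA3 (gene 100622793; chromosome 10, 23824181 to 23827428, reverse strand) encodes a small pleckstrin homology protein that competes with AKT for the membrane and so restrains survival signalling. Its level was 7.17, 6.42, 8.93 and 9.05 FPKM in PKP2_het replicates 1 to 4, from 374 to 487 fragments. In WT it was 4.73, 5.32, 5.72 and 4.79 FPKM, from 204 to 366 fragments. All PKP2_het libraries were above all WT libraries, and replicate 3, which was the lowest PKP2_het library for CDKN1A, was close to the highest here.

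PHLDA3 averaged 7.89 ± 1.31 FPKM in PKP2_het against 5.14 ± 0.468 in WT (SD, n = 4). The log2 difference was 0.53 with a standard error of 0.13 and a 95% interval of 0.24 to 0.81. The limma adjusted p was 0.0813, and the exact permutation test again gave its smallest p, 0.0286. It passed in 0 of 19 alternatives, with adjusted p from 0.0517 with library quality weights to 0.734 with libraries rescaled to equal sums, where the difference was 0.29. With the mitochondrial genome left out of those sums, the difference was 0.46 and the limma adjusted p 0.152.

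TP53INP1 (gene 100157451; chromosome 4, 41747654 to 41766688, forward strand) encodes a p53-inducible protein that acts in the nucleus and in autophagy. It was at 4.13, 5.97, 8.51 and 4.78 FPKM in PKP2_het and at 7.10, 4.97, 4.74 and 6.01 FPKM in WT. As for BAX, PKP2_het replicate 3 was the highest library and PKP2_het replicate 1 the lowest. The log2 difference was 0.0041 with a 95% interval of -0.43 to 0.44. Without PKP2_het replicate 3 it was -0.17 with an interval of -0.50 to 0.17.

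The sestrins restrain growth signalling through mTORC1 when amino acids are short or oxidants are high. SESN1 (gene 100523876; chromosome 1, 75056731 to 75170374, reverse strand) was at 30.4, 17.7, 11.2 and 17.5 FPKM in PKP2_het replicates 1 to 4. In WT it was 14.5, 15.7, 20.8 and 14.9 FPKM. As with CCNG1, PKP2_het replicate 1 was the highest library and replicate 3 the lowest. The log2 difference was 0.14 with a 95% interval of -0.42 to 0.71, and 0.35 with an interval of -0.11 to 0.81 without PKP2_het replicate 3. SESN1 overlaps 3 other genes in the table, ARMC2 among them, and whether fragments were counted by strand is not given in the sources used here, so its level is uncertain.

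SESN2 (gene 100620966; chromosome 6, 85321982 to 85348044, forward strand) was low in all libraries, at 0.203 to 0.268 FPKM in PKP2_het and 0.0880 to 0.294 FPKM in WT, from 18 to 53 fragments. It did not pass the filter on low values. The exact permutation p was 0.80, with the PKP2_het values inside the WT range.

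GDF15 (gene 100379630; chromosome 2, 59409035 to 59411356, reverse strand), a secreted hormone of the TGF-beta family that is measured in blood as a sign of cardiac and mitochondrial stress, was hardly detected. PKP2_het replicates 1 to 4 had 0, 1, 0 and 3 fragments and WT replicates 1 to 4 had 3, 0, 0 and 7. The highest level was 0.216 FPKM, in WT replicate 4. With 4 fragments in PKP2_het and 10 in WT, a difference was not detectable at this depth (exact permutation p = 0.543), and the gene did not pass the filter.

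**Figure D3:**
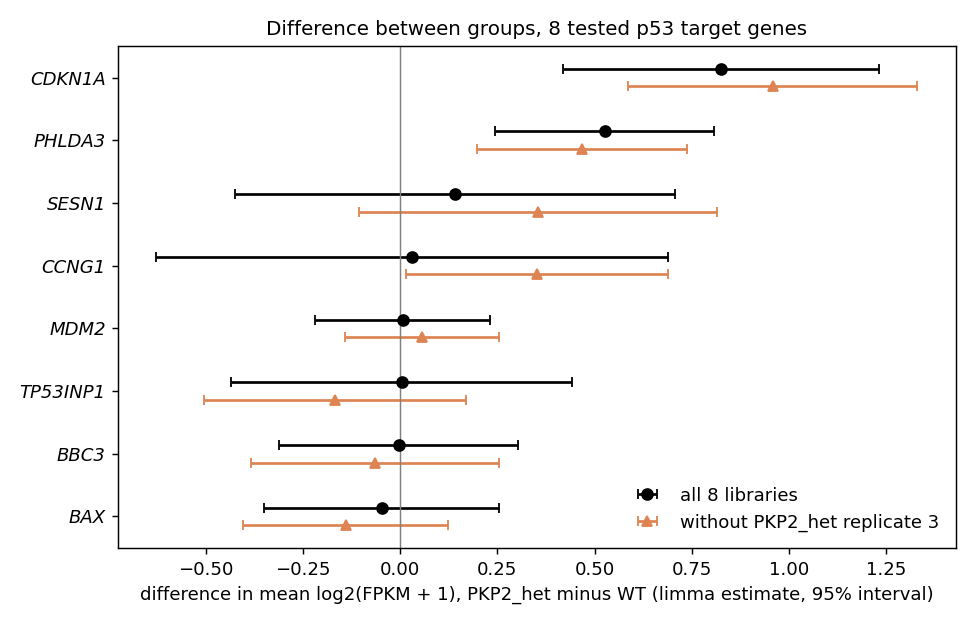
Difference in mean log2(FPKM + 1), PKP2_het minus WT, with its 95% limma interval for the 8 tested members, with all 8 libraries (circles) and without PKP2_het replicate 3 (triangles). With all libraries only the intervals of CDKN1A and PHLDA3 lie wholly above 0, and without that library the interval of CCNG1 also does.

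Ordered by the mean over the 8 libraries, CCNG1 stood at 252 FPKM and SESN1 at 17.8 FPKM, with no overlap between them. PHLDA3 at 6.52, TP53INP1 at 5.78, MDM2 at 4.64 and BAX at 4.30 FPKM followed, and neighbours in this stretch overlapped. CDKN1A at 1.76 and BBC3 at 1.43 FPKM also overlapped. SESN2 at 0.230 FPKM lay below both, and GDF15 was last at 0.0595 FPKM, overlapping SESN2. CDKN1A was therefore among the least abundant of the detected members in both groups.

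The members did not all vary together across the libraries. PKP2_het replicate 1 was the highest of the 8 libraries for CDKN1A, MDM2, SESN1 and CCNG1, and the lowest for BAX and TP53INP1. PKP2_het replicate 3 was the reverse, lowest for MDM2, SESN1 and CCNG1 and highest for BAX and TP53INP1. The pooled within-group SD of log2(FPKM + 1) was 0.49 for CCNG1 and 0.42 for SESN1, against a median of 0.20 over all tested genes and 0.11 for MDM2. The part of RNA quality or of the mitochondrial share of PKP2_het replicate 3 in this pattern was not tested.

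**Figure D4:**
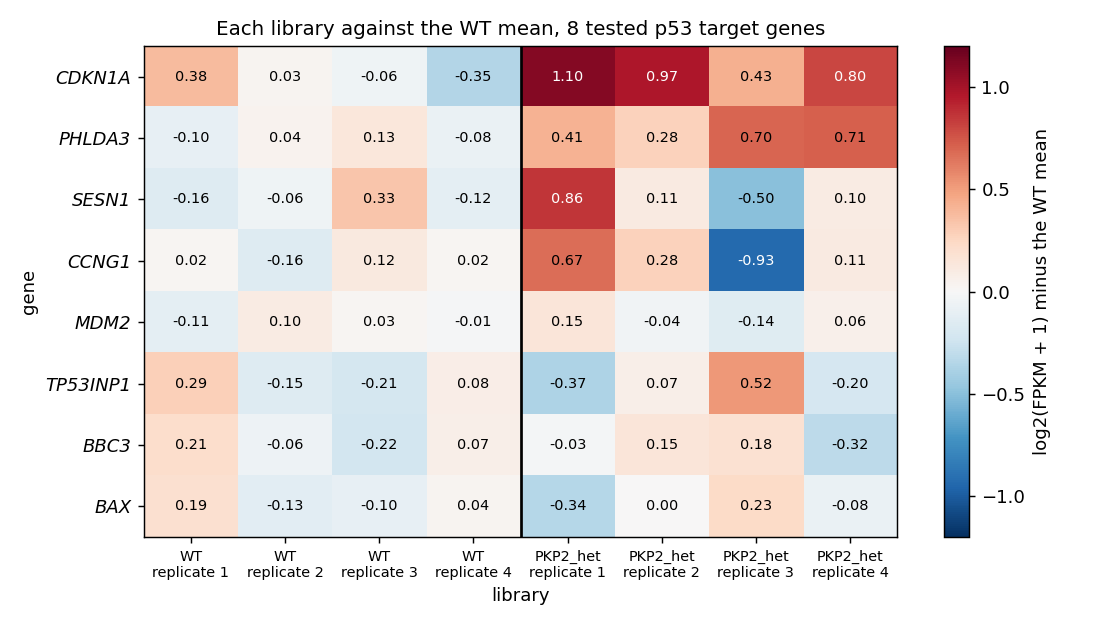
Each library's log2(FPKM + 1) minus the WT mean of the same gene, for the 8 tested members (rows) and 8 libraries (columns); red is above and blue below the WT mean. CDKN1A and PHLDA3 are above it in all PKP2_het libraries, while CCNG1 and SESN1 are above it in PKP2_het replicate 1, at 0.67 and 0.86, and below it in replicate 3, at -0.93 and -0.50.

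By Pearson correlation of log2(FPKM + 1) over the 8 libraries, the named genes most like CDKN1A among 10756 others were GLA (r = 0.97), LACC1 (0.95), LACTB2 (0.94), GABPA (0.94) and TRIM47 (0.94). They were chosen for this likeness, so the values are a description; all libraries share the split into groups. GLA encodes the lysosomal alpha-galactosidase, and LACTB2 a mitochondrial endoribonuclease. LACTB2, at 9.22 ± 1.63 FPKM in WT (SD, n = 4), rose to 26.4 ± 5.96 in PKP2_het (limma adjusted p = 0.00502), and was the called gene among these 5. PHLDA3 had r = 0.61 with CDKN1A and rank 842, SESN1 0.44, CCNG1 0.38 and MDM2 0.17. BBC3 had r = 0.013, TP53INP1 -0.19 and BAX -0.30.

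A wider list of 59 p53 targets had 46 tested genes. Limma called 0 of them, 3 were higher and 3 lower at an unadjusted p under 0.05, and the median log2 difference was -0.039 against -0.022 for all tested genes. The 6 genes are 13.0% of the list, beside the 12.8% of all tested genes given above. PLTP, a phospholipid transfer protein of lipoproteins, had a mean of 9.25 ± 2.35 FPKM in PKP2_het against 3.17 ± 2.24 (SD, n = 4), with a limma adjusted p of 0.0592, and of 0.00411 without WT replicate 3. DDB2, which recognises ultraviolet damage in DNA for repair, was at 4.52 ± 0.665 and 2.82 ± 0.569 FPKM (adjusted p = 0.10), with WT replicate 4 just above the lowest PKP2_het library.

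Among the lower genes of that list, TP53I11 had a mean of 3.39 ± 1.08 FPKM in PKP2_het against 6.05 ± 0.467 (SD, n = 4), with a limma adjusted p of 0.0907. KITLG, the ligand of the receptor KIT, was at 6.74 ± 1.68 and 10.6 ± 2.97 FPKM (adjusted p = 0.286). Without PKP2_het replicate 3, limma called TP53I11 (adjusted p = 0.0479) and RRM2B (0.0224, against 0.75 with all libraries), a p53-inducible ribonucleotide reductase subunit named here after its values were seen. RRM2B was at 6.32, 5.89, 2.18 and 6.01 FPKM in PKP2_het replicates 1 to 4 and at 3.67 to 4.60 FPKM in WT, so that replicate 3 was below all WT libraries and the other 3 above them. These 2 of 46 genes stand beside the 2.92% of all tested genes called in that fit. With library quality weights, where 6.13% of all tested genes were called, 5 of the 46 were: DDB2 (adjusted p = 0.0184), IER5, PLTP, RRM2B and TP53I11. With the replicate block PLTP was called (adjusted p = 0.0398), and without WT replicate 3 PLTP as given above, beside 0.976% and 1.44% of all tested genes.

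Of 25 genes in the upstream part of the p53 pathway, all in the table, 21 were tested and 0 called by limma, with 1 unadjusted p under 0.05 and a median log2 difference of -0.042. PRKDC, the catalytic subunit of the DNA-dependent protein kinase that joins broken DNA ends, was at 0.745, 1.35, 1.32 and 1.17 FPKM in PKP2_het and at 1.65, 2.89, 3.37 and 3.08 FPKM in WT. The groups did not overlap, the log2 difference was -0.79, and the limma adjusted p was 0.0503. It passed with robust variances, library quality weights, voom, the replicate block and without WT replicate 1, at adjusted p down to 0.00791 with the weights. The robust fit called 1.90% and voom 1.78% of all tested genes. CDKN2AIP, PPP1R13L and RPL5 had log2 differences of 0.24, 0.33 and 0.30 (adjusted p of 0.415, 0.466 and 0.515), and with library quality weights CDKN2AIP was also called (adjusted p = 0.0473).

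The other CDK inhibitors and the cyclins and kinases they act on numbered 13 tested of 17. Limma called 0, with 0 at an unadjusted p under 0.05 and a median log2 difference of -0.0021. Without PKP2_het replicate 3 it also called 0, and 2 had an unadjusted p under 0.05, beside 16.6% of all tested genes. With all libraries, RBL1 (p107) had a log2 difference of -0.24, CDK4 of 0.24, CCND2 of -0.28 and CDKN1C (p57) of 0.23, with adjusted p from 0.414 to 0.618. CDKN1B, which encodes p27 and was named after its values were seen, had means of 26.2 ± 2.70 and 25.8 ± 1.87 FPKM (SD, n = 4), above CDKN1A in every library. In the BCL2 family, 11 of 17 genes were tested and 0 called by limma, with 1 higher and 1 lower at an unadjusted p under 0.05 and a median of 0.0020. BNIP3L, a mitophagy receptor, had a log2 difference of -0.27, BAD of 0.23, BMF of 0.15 and BID of 0.25, with adjusted p from 0.289 to 0.592. The survival genes MCL1 and BCL2L1, also named afterwards, had log2 differences of 0.047 and 0.0020.

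GDF15 and SESN2 are also targets of ATF4, the transcription factor of the integrated stress response. Of 22 genes of that response, 14 were tested, limma called 0, and 2 were higher at an unadjusted p under 0.05, with a median log2 difference of 0.079. DDIT3 (CHOP), a factor induced by ATF4, had means of 13.3 ± 0.700 FPKM in PKP2_het and 9.37 ± 1.52 in WT (SD, n = 4). All its PKP2_het libraries were above all WT libraries, and the limma adjusted p was 0.0964; it was 0.0305 with library quality weights and 0.0394 without WT replicate 3. NUPR1 was at 9.52 ± 4.10 and 4.33 ± 0.658 FPKM (limma adjusted p = 0.177), with PKP2_het replicate 4 inside the WT range and an adjusted p of 0.0166 without that library, where 1.36% of all tested genes were called. ATF5 and PPP1R15A had log2 differences of 0.19 and 0.31 (adjusted p of 0.407 and 0.586). Without PKP2_het replicate 3, limma called 0 of the 14, and 5 had an unadjusted p under 0.05, beside 16.6% of all tested genes. The median of the list was then 0.021, against 0.0067 over all tested genes.

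Genes of DNA replication and mitosis, which arrest through p21 is known to lower, were mostly too low to test. Of 25 such genes, 4 passed the filter: MCM5, PCNA, MCM6 and AURKB had log2 differences of -0.17, -0.26, -0.16 and 0.074, and limma called 0 of them, with 0 at an unadjusted p under 0.05 and a median of -0.17. The mean was lower in PKP2_het for 21 of the 25, and 20 had a mean below 1 FPKM. With no filter, where 0.441% of 22206 genes were called lower, limma called E2F1, a driver of entry into DNA replication, and MCM2, a subunit of the replicative helicase. E2F1 was at a mean of 0.133 FPKM in PKP2_het, range 0.0978 to 0.159, against 0.383 FPKM, range 0.361 to 0.400 (limma adjusted p = 0.00360). MCM2 was at 0.279 and 0.562 FPKM (adjusted p = 0.0262).

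Groups that did not overlap, with PKP2_het lower, were found for 6 of these 25 cell cycle genes, against 3.48% of the 22206 genes. The 6 were CCNB1, TOP2A, BUB1B, E2F1, MCM2 and CENPF, named after their values were seen. PKP2_het and WT means were 0.0968 and 0.223 FPKM for CCNB1 and 0.0800 and 0.246 FPKM for TOP2A. For BUB1B they were 0.0176 and 0.0600 FPKM and for CENPF 0.0203 and 0.0605 FPKM, near the floor. A gene at 0 in any WT library cannot separate this way, and 15715 of the 22206 were above 0 in every library. The 3.48% is therefore not a share of genes at like levels. The summed level of the 25 was 16.8 to 19.1 FPKM in PKP2_het and 20.9 to 22.9 FPKM in WT. PCNA made up the largest part of that sum, and without it the sums were 8.45 to 11.8 and 11.4 to 12.5 FPKM and overlapped, with PKP2_het replicate 3 inside the WT range. The 5 neutrophil markers, all too low to test, lay the same way: they summed to 0.236 to 0.548 FPKM in PKP2_het and 0.649 to 2.71 FPKM in WT, and S100A12 was at 0 in all PKP2_het libraries. Their part in the cell cycle levels was not tested.

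**Figure D5:**
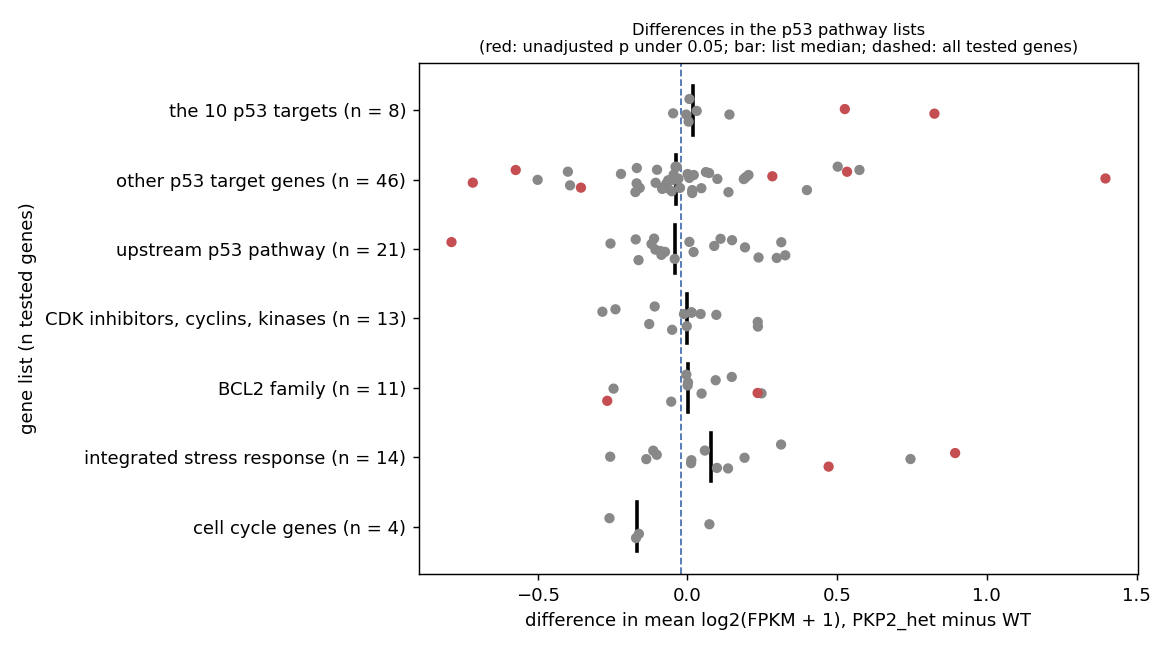
Difference in mean log2(FPKM + 1), PKP2_het minus WT, of the tested genes in each list; red points have an unadjusted limma p under 0.05, black bars are list medians and the dashed line is the median of all tested genes, at -0.022. In every list the points lie on both sides of 0, and 0 genes pass the adjusted threshold.

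Marker lists of other cell types were compared beside CDKN1A and PHLDA3. The 8 endothelial markers all had negative log2 differences, with summed levels of 207 to 426 FPKM in PKP2_het and 246 to 488 FPKM in WT. Of 6 fibroblast markers 3 were positive, with sums of 204 to 466 and 231 to 308 FPKM, and of 6 pericyte and smooth muscle markers 4 were positive, with sums of 214 to 401 and 234 to 401 FPKM. The 5 tested macrophage markers were all negative, at sums of 9.56 to 20.01 and 15.1 to 18.9 FPKM over the 6. The T and NK cell markers summed to 1.68 to 4.66 and 4.33 to 5.48 FPKM. Sums of adipocyte markers (17.3 to 94.8 and 11.4 to 179 FPKM) and erythroid markers (92.4 to 436 and 52.4 to 515 FPKM) varied widely within both groups. Limma called 0 genes of these lists, and their part in the levels of CDKN1A and PHLDA3 was not tested. Of 6 skeletal muscle genes, MYH4 was at 0 in every library, and MYH1 and MYH2 were at 0 in all PKP2_het libraries. Without CKM, which heart muscle also expresses at a high level, the list summed to 0.165 to 0.367 FPKM in PKP2_het and 0.0596 to 0.128 FPKM in WT. That sum was higher in every PKP2_het library, mostly through ACTN3, at 0.154 to 0.367 and 0.0306 to 0.0670 FPKM. The 5 genes in it had means below 1 FPKM and were too low to test.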

How the data were processed

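Alignment of the paired reads of 8 libraries used HISAT2 2.0.5, as the labels' protocols state. What counted the fragments, on which annotation and with which normalisation, is not given in the sources used here. FPKM values were deposited by the authors with gene names, coordinates and lengths (30335 of 30550 genes had the same start and end in the RefSeq table of Sscrofa11.1). FPKM multiplied by length was a whole multiple of 1 step per library for 100% of values above 0, within 0.01 fragments, which gave fragments per gene. The library factors equal median-of-ratios factors over 15715 genes.

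The 10757 genes at 1 FPKM or more in 4 or more libraries were compared as log2(FPKM + 1) with limma 3.58.1 in R 4.3.3 (variance trend, two-sided, Benjamini-Hochberg over all tested genes, threshold 0.05), and single members with an exact permutation test (scipy 1.17.1). The fit was also run on simulated fragments with the same dispersion for every gene and no library that stood apart. Such data differ from these libraries. As alternatives, each library was left out in turn, a replicate block was added, the pseudocount was set to 0.1 or 0.5, and other filters, other scalings, quality weights, robust variances and voom (on the fragments) were tried. The number of libraries and the fragments per gene limit the precision. In each list the called genes, or up to 4 with the smallest p, were named. The members and lists were chosen with earlier results of these data known. List genes were matched by symbol, and 8 entries had no match, 1 of them (COP1) a second name of RFWD2, which did match. No library stood apart within its group for any of the 10 genes by Dixon's ratio at the 95% level (20 groups of 4). With 4 libraries the critical ratio is 0.829, so only a very distant library could be flagged. PKP2_het replicate 3 was not flagged for CCNG1. Sequences were not used here. The level of 1 gene of these lists is not reported here.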

Additional observations from a re-analysis of the deposited data

How the results depend on the processing

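Across 18 alternatives CDKN1A kept its direction and passed the limma threshold in 3; it was at 0.95 with library quality weights and ran from 0.71 to 0.96 when 1 library was left out, and over all alternatives it ran from 0.71 to 1.46, the highest with voom. With it, the count of members called was 1 with library quality weights and 0 to 1 when 1 library was left out. Those fits kept the filter set on all 8 libraries, which CDKN1A passed through PKP2_het. Genome-wide calls were 200 as reported and 67 with a mean of at least 5 FPKM (5819 genes tested). They were 94 with equal FPKM sums and 182 with the mitochondrial genome left out of those sums. Library quality weights gave 659 and the replicate block 105, and the calls ran from 115 to 314 when 1 library was left out. PHLDA3 kept its direction and stayed above the threshold in all 19. The groups did not overlap for CDKN1A or PHLDA3, so leaving out 1 library, another pseudocount or weights on libraries could not reverse either direction.

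The members with differences near 0 changed sign. With equal FPKM sums MDM2 was at -0.21, SESN1 at -0.11, CCNG1 at -0.24 and TP53INP1 at -0.22, beside a median of -0.23 over all tested genes. With the mitochondrial genome left out of the sums MDM2 was at -0.056, CCNG1 at -0.044 and TP53INP1 at -0.059, beside a median of -0.082. Quantile normalisation gave BBC3 0.00061 and CCNG1 -0.0052, library quality weights gave MDM2 -0.019, BBC3 0.0099 and TP53INP1 -0.0057, and voom gave BBC3 0.0096 and TP53INP1 -0.00082. Leaving out 1 library gave ranges of -0.040 to 0.057 for MDM2, -0.14 to 0.050 for BAX, -0.078 to 0.10 for BBC3, -0.098 to 0.35 for SESN1, -0.18 to 0.35 for CCNG1 and -0.17 to 0.13 for TP53INP1. None of these passed the threshold, and the cause was not tested.

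The replicate numbers do not pair the libraries by the labels, and the deviations of same-numbered libraries correlated at -0.39, 0.033, -0.23 and 0.20; libraries did not all correlate best with their own number. With the replicate block CDKN1A was at 0.83 with an adjusted p of 0.0605. No member changed its call with the block. A mean of at least 5 FPKM gave no value for CDKN1A, MDM2, BAX and BBC3.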
